A study of Arabidopsis thaliana with 24 samples.

Results

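Time-of-day gating of the response to salicylic acid (SA) was measured in true leaves of Arabidopsis thaliana as a difference of 2 changes. The change from the arrays labelled SA 0 h to those labelled SA 3 h after treatment at ZT36 was subtracted from the same change after treatment at ZT24, and the result is called the gating difference here. It rests on 12 of the 24 Affymetrix arrays of the series, 3 in each of 4 groups, and on 22746 of 22810 probe sets, all but the 64 array controls. The plants of every group were wild type, 23 days old and grown in soil with a day length of 12 h, and were held in constant light from 24 h before treatment until harvest. SA was given at 1 mM, and the other 12 arrays came from plants given water at the same times. ZT counts hours on the zeitgeber clock, so that ZT24 falls at subjective dawn and ZT36 at subjective dusk for plants raised with a 12 h day. The 3 arrays of a group are called biological replicates in the treatment protocol, which does not say how many plants or leaves went into a sample, and the p-values measure the spread between these arrays. Every value is log2 expression after subtraction of the probe set's own median over all 24 arrays. Such values show how samples differ and give no level.

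Salicylic acid is a plant hormone that accumulates after infection and reprograms transcription, largely through the co-activator NPR1 and the TGA family of bZIP factors. Receptor kinases that sense microbes or damage at the cell surface, WRKY factors, glutaredoxins and glycosyltransferases are among the genes it is known to raise in leaves. The circadian clock gives many plant transcripts a daily rhythm, and a response is called gated where the same stimulus gives a change of another size or direction at another time of day.

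Before any gating value is read, the starting arrays need description. The arrays labelled SA 0 h differed from those labelled water 0 h in 3688 probe sets (16.2%) at ZT24 and in 6603 (29.0%) at ZT36 (limma, Benjamini-Hochberg adjusted p under 0.05), whereas water 3 h differed from water 0 h in 0 probe sets at ZT24 (728 at an unadjusted p under 0.05) and in 2 (0.00879%) at ZT36 (3049 unadjusted). GI, a clock gene with its peak near dusk, had a mean of 3.06 in the water ZT36 0 h arrays and of 0.37 in the SA ZT36 0 h arrays on the relative log2 scale. The SA 0 h arrays are used here as labelled, and values against water arrays stand beside the results below. Pairs of arrays had r of 0.62 to 0.78 within SA ZT24 0 h and 0.69 to 0.78 within SA ZT36 0 h (genes are not independent points). It was 0.88 to 0.90 within SA ZT24 3 h and 0.89 to 0.94 within SA ZT36 3 h. Within water 0 h it was 0.79 to 0.91 at ZT24 and 0.76 to 0.84 at ZT36. No array repeated another. Because the values are centred, neither the leaf markers nor the markers of other cell types could be read as levels. None of 13 measured genes on marker lists was called in the gating contrast, against 0.598% of all probe sets. The lists were those of roots (4), pollen and flowers (3), phloem (1), trichomes (1), and stomatal development and guard cells (4). Of the 13, 3 (STOMAGEN, FMA and AGL65) fell after SA at both times, as did 2775 of all 22746 probe sets. In whole leaves, fewer cells of a type and less RNA per cell cannot be told apart.

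SA changed many transcripts in the same direction at both times, and few differences between the times were called. From 0 h to 3 h after SA, 7211 probe sets (31.7%) changed at ZT24, 3248 upwards (14.3%) and 3963 downwards (17.4%). At ZT36 6762 (29.7%) changed, 3028 upwards (13.3%) and 3734 downwards (16.4%). These changes share no array. They had a Pearson r of 0.88 and a Spearman rho of 0.76 across probe sets. Of the 5205 probe sets called at both times, 5192 moved in the same direction and 13 in opposite directions. The gating difference itself was called for 136 probe sets (0.598%), 92 (0.404%) with the more positive change at ZT24 and 44 (0.193%) with the more positive change at ZT36. At an unadjusted p under 0.05 there were 2253. Among the 1161 probe sets that moved the same way by at least 1 on the log2 scale at both times, 23 were called in the gating contrast and 51 had a gating difference of at least 1 in size. The plot of the ZT24 change against the ZT36 change shows the called probe sets along both sides of the diagonal.

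**Figure D1:**
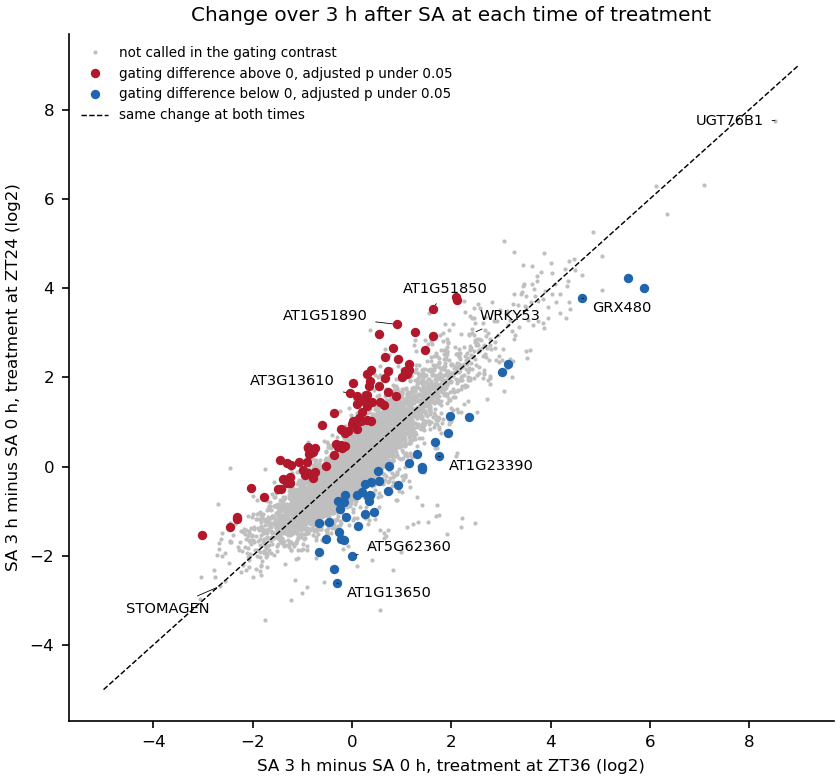
Each point is a probe set: the horizontal axis gives SA 3 h minus SA 0 h after treatment at ZT36 and the vertical axis the same after ZT24, both on the log2 scale, with the dashed line marking equal changes. The 92 red and 44 blue points are the probe sets called in the gating contrast, while UGT76B1 with changes of 7.75 and 8.52 and the downward STOMAGEN with -2.68 and -2.65 are among the uncalled grey points.

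The median standard error (SE) of a gating difference was 0.15 on the log2 scale and the smallest called difference was 0.48 in size. The count was 52 without SA ZT36 3 h replicate 2, 55 without SA ZT36 0 h replicate 2 and 80 without SA ZT24 0 h replicate 1. The count of positive differences was 147 without SA ZT24 3 h replicate 2, and that of negative differences was 28 without SA ZT36 3 h replicate 1. Quantile normalization of the centred values, which gives every array the same distribution, called 542 positive and 475 negative differences in place of 92 and 44. The standard deviation over probe sets was 0.32 to 0.36 in SA ZT24 0 h arrays and 0.55 to 0.65 at 3 h. At ZT36 it was 0.29 to 0.30 and 0.56 to 0.59. Quantile normalization removes this difference in spread between 0 h and 3 h, so values under it cannot show whether a call holds. Where such values stand beside named genes below, they are a description and count neither for nor against a call. The water arrays, measured the same way and sharing no array with the gating contrast, gave 2 calls (0.00879%, with 2002 at an unadjusted p under 0.05). In those water arrays the 92 positive probe sets had a median difference of -0.02 and the 44 negative ones 0.07, and none of the 136 was called.

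Gating took several forms, which were sorted by the calls at each time. Of the 92 positive differences, 26 probe sets rose at both times and rose more at ZT24, and 31 were called as a rise at ZT24 alone. Another 19 were called as a fall at ZT36 alone, 11 fell at both times and fell more at ZT36, and 5 rose at ZT24 and fell at ZT36. Of the 44 negative differences, 18 were called as a fall at ZT24 alone, 9 rose at both times and rose more at ZT36, and 7 were called as a rise at ZT36 alone. A further 5 fell at both times and fell more at ZT24, and 5 fell at ZT24 and rose at ZT36. The median positive difference was 1.09 and the median negative one -1.08 on the log2 scale. Of the 136 probe sets, 72 stand for named genes and 64 are not named here.

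Receptor kinases of the leucine-rich repeat (LRR) class, membrane proteins that bind ligands outside the cell and signal through a kinase inside it, held the largest positive gating difference among named genes. AT1G51890 read -0.38, 0.25 and 0.87 in the SA ZT24 0 h arrays and 4.02, 2.98 and 3.295 in the SA ZT24 3 h arrays. At ZT36 it read 0.17, -0.32 and -0.55 at 0 h and 0.71, 0.80 and 0.50 at 3 h. The 3 h arrays of ZT24 all lay above those of ZT36, and the 0 h arrays of the 2 times overlapped. Its rise was 3.19 ± 0.34 (SE, n = 3 arrays a group) at ZT24 and 0.90 ± 0.34 at ZT36, a gating difference of 2.28 ± 0.48 (limma, Benjamini-Hochberg adjusted p = 0.0258). AT1G51850, another LRR receptor kinase, read 0.12, 0.03 and 0.49 at 0 h and 4.12, 3.39 and 3.75 at 3 h after ZT24. After ZT36 the same gene read 0.05, -0.02 and -0.11 at 0 h and 1.29, 1.72 and 1.81 at 3 h. It rose at both times without overlap between 0 h and 3 h, by 3.54 ± 0.15 and 1.64 ± 0.15, and the gating difference of 1.91 ± 0.21 (adjusted p = 0.00017) is a 3.75-fold larger rise at ZT24. AT1G51860 rose by 0.85 ± 0.09 at ZT24 and stood at 0.11 ± 0.09 at ZT36, with a gating difference of 0.75 ± 0.13 (adjusted p = 0.011).

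These 3 genes belong to a run of receptor kinase and kinase-like loci with nearby locus numbers, from AT1G51790 to AT1G51910, of which 10 of 13 entries had a probe set of their own. The run was put together after these values were seen, so its count is a description. Of the 10, 5 were called as a rise at ZT24 (14.3% of all probe sets were) and 3 at ZT36 (13.3%). In the gating contrast 3 were called positive (0.404% of all probe sets were). The median gating difference was 0.16 over the 10 against -0.01 over 13355 named genes. AT1G51790 rose by 3.03 ± 0.17 at ZT24 and by 3.22 ± 0.17 at ZT36, and its gating difference of -0.19 was not called (adjusted p = 0.885, 95% interval -0.70 to 0.32). AT1G51820 had 0.48 ± 0.23 (adjusted p = 0.492), which was called without SA ZT24 3 h replicate 2 (0.77, adjusted p = 0.016). Large SA responses with and without a called gating difference thus stood within the run. Probe sets of close relatives may share signal. The call of AT1G51890 was lost without any 1 of 8 arrays (SA ZT24 0 h replicates 1 and 2, SA ZT24 3 h replicate 1, SA ZT36 0 h replicates 1 and 2, and all 3 of SA ZT36 3 h), with adjusted p of 0.0547 to 0.0834, while AT1G51850 and AT1G51860 kept theirs without any single array. AT1G51890 also lost its call after quantile normalization (1.10, adjusted p = 0.247) and with array weights (1.79, adjusted p = 0.0513). After quantile normalization AT1G51850 (1.19) and AT1G51860 (0.47) were called with smaller differences.

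Other kinases and an immune receptor, picked from the called genes after their values were seen, had positive gating differences too. AT1G74360, an LRR receptor kinase, rose by 2.41 ± 0.22 at ZT24 and by 0.93 ± 0.22 at ZT36 (gating difference 1.48 ± 0.31, limma, Benjamini-Hochberg adjusted p = 0.0277). Its SA ZT24 0 h arrays lay below water ZT24 0 h by a log2 difference of -0.79 ± 0.22 (adjusted p = 0.0179), and against water 3 h its difference was 0.84 (adjusted p = 0.066), and the part of the starting arrays in the result was not tested. B120, a lectin receptor kinase of the S-domain class, rose by 1.47 ± 0.15 at ZT24 and stood at 0.24 ± 0.15 at ZT36 (1.23 ± 0.21, adjusted p = 0.011). The kinase-family gene AT1G51620 rose by 2.31 ± 0.17 and by 1.15 ± 0.17 (1.16 ± 0.23, adjusted p = 0.0222). Rises at ZT24 made these differences, with B120 alone of the 3 not called at ZT36.

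A larger rise did not always give a higher end point. AT1G48210, a cytoplasmic kinase of the Pti1-like family, read -2.24, -2.60 and -2.34 in the SA ZT24 0 h arrays and 0.48, 0.42 and 0.69 at 3 h. At ZT36 it read 0.17, 0.14 and -0.0049 at 0 h and 1.67, 1.85 and 1.71 at 3 h. It rose by 2.92 ± 0.16 at ZT24 and by 1.64 ± 0.16 at ZT36, yet every ZT36 array stood above the ZT24 arrays of the same hour. Its gating difference was 1.29 ± 0.22 (limma, adjusted p = 0.0114). In the water 0 h arrays its ZT24 mean was -0.96, so the SA ZT24 0 h arrays lay 1.43 ± 0.16 lower (adjusted p = 3.62e-06), and the difference against water 3 h was 0.17 (adjusted p = 0.683). The part of this offset in the result was not tested. After quantile normalization its gating difference was larger, 2.20, and called.

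For 4 further kinases and receptors the ZT36 arrays fell. AT1G53430, an LRR receptor kinase, fell by 0.87 ± 0.16 at ZT36 and stood at 0.29 ± 0.16 at ZT24 (gating difference 1.15 ± 0.23, limma, adjusted p = 0.0201). The protein kinase ATSIK fell by 1.06 ± 0.14 at ZT36 and stood at 0.09 ± 0.14 at ZT24 (1.15 ± 0.20, adjusted p = 0.0127). PTI1-4, also a Pti1-like kinase, fell by 1.31 ± 0.12 at ZT36 and by 0.37 ± 0.12 at ZT24 (0.94 ± 0.17, adjusted p = 0.0165). AT1G63750, a TIR-NBS-LRR immune receptor of the kind that acts inside the cell, fell by 0.98 ± 0.10 at ZT36 and stood at -0.07 ± 0.10 at ZT24 (0.91 ± 0.15, adjusted p = 0.00685). None of these 4 rose at ZT24. The SA 0 h arrays differed from water 0 h for ATSIK at ZT24 (0.68 ± 0.14, limma, adjusted p = 0.00233). For PTI1-4 they differed at ZT36 (-0.39 ± 0.12, adjusted p = 0.0207). Without SA ZT36 3 h replicate 2 the calls of AT1G74360 (adjusted p = 0.081), AT1G51620 (0.0638), AT1G53430 (0.0638) and PTI1-4 (0.0506) were lost. Calls were lost also without SA ZT24 0 h replicate 1 for AT1G74360 (0.09), AT1G51620 (0.0502) and AT1G53430 (0.0646), without SA ZT36 0 h replicate 1 for the same 3 (0.0696, 0.0526 and 0.0506), without SA ZT36 0 h replicate 2 for AT1G74360 (0.0667) and AT1G53430 (0.059), without SA ZT36 0 h replicate 3 for AT1G74360 (0.0548) and AT1G51620 (0.0578), and without SA ZT36 3 h replicate 3 for AT1G74360 (0.0643). In a fit of the 12 SA arrays alone AT1G51620 (0.121), AT1G53430 (0.0952), AT1G74360 (0.135), B120 (0.0747) and PTI1-4 (0.0547) were not called, and after quantile normalization AT1G51620 was not (0.60, adjusted p = 0.109).

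**Figure D2:**
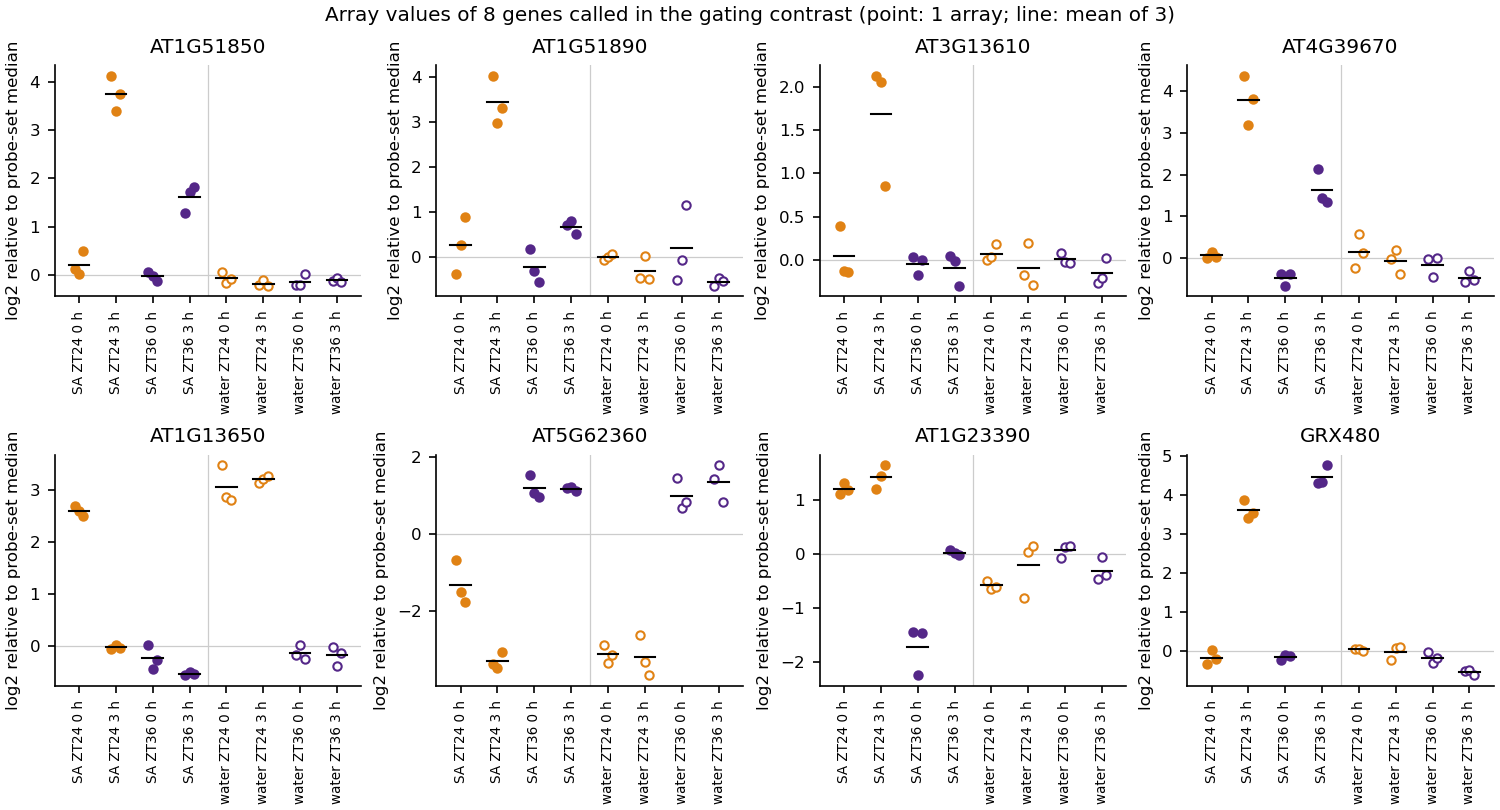
Each panel plots 1 gene, with log2 expression relative to the median of its probe set on the vertical axis and the 8 groups on the horizontal axis, 1 point an array (filled for SA, hollow for water) and a line at the mean of 3. AT1G51850 ends between 3.39 and 4.12 after SA at ZT24 and between 1.29 and 1.81 at ZT36, whereas the ZT24 panels of AT5G62360 and the panels of AT1G23390 show SA 0 h arrays that lie apart from the water 0 h arrays.

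Other named genes also rose more at ZT24. AT3G13610 encodes an enzyme that makes scopoletin, a coumarin defence compound. It read 0.39, -0.12 and -0.14 in the SA ZT24 0 h arrays and 2.13, 2.05 and 0.86 at 3 h, and 0.03, -0.17 and -0.0003 at 0 h and 0.04, -0.02 and -0.30 at 3 h after ZT36. Only the ZT24 3 h arrays stood apart, above all 9 others, and the gene rose by 1.64 ± 0.23 at ZT24 against -0.04 ± 0.23 at ZT36 (gating difference 1.68 ± 0.32, limma, Benjamini-Hochberg adjusted p = 0.019). CCR2 (AT1G80820), a cinnamoyl-CoA reductase of lignin and phenolic synthesis, rose by 1.22 ± 0.15 at ZT24 and stood at 0.21 ± 0.15 at ZT36 (1.01 ± 0.21, adjusted p = 0.0258). AT4G39830, of the ascorbate oxidase family, rose by 1.81 ± 0.12 and by 0.55 ± 0.12 (1.26 ± 0.18, adjusted p = 0.00213). AT3G02840, an armadillo-repeat gene known to respond within minutes to elicitors, rose by 3.02 ± 0.24 and by 1.27 ± 0.24 (1.75 ± 0.33, adjusted p = 0.019).

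AT4G39670, with a glycolipid transfer domain, was the member of this set with the highest rise. It read 0.01, 0.16 and 0.03 at 0 h and 4.38, 3.19 and 3.82 at 3 h after ZT24, and -0.38, -0.66 and -0.38 at 0 h and 2.13, 1.43 and 1.35 at 3 h after ZT36. The 4 groups did not overlap, and the rises were 3.73 ± 0.25 and 2.11 ± 0.25 (gating difference 1.62 ± 0.35, limma, adjusted p = 0.0355). AT2G44380, with C1 domains, rose by 2.67 ± 0.25 and by 0.83 ± 0.25 (1.83 ± 0.36, adjusted p = 0.0198). AT5G60800, with a heavy-metal-associated domain, rose by 1.91 ± 0.21 at ZT24 and stood at 0.36 ± 0.21 at ZT36 (1.55 ± 0.29, adjusted p = 0.0177). For AT5G60800 the SA 0 h arrays lay 0.83 below water at ZT24 and 0.63 above it at ZT36, and the part of this in the result was not tested. AT3G26910, of a hydroxyproline-rich glycoprotein family, rose by 1.19 ± 0.18 at ZT24 and stood at -0.37 ± 0.18 at ZT36 (1.56 ± 0.25, adjusted p = 0.00685). AT1G32920 rose by 2.07 ± 0.17 at ZT24 from SA 0 h arrays of -1.54, -1.21 and -1.32 to 0.69, 0.43 and 1.03 (1.77 ± 0.23, adjusted p = 0.00104). The ZT36 arrays of AT1G32920 ran from -0.29 to 0.25 at 0 h and from 0.03 to 0.49 at 3 h, so its groups of the 2 times were apart at 0 h and overlapped at 3 h. Its water change over 3 h also differed between the times, by 1.35 ± 0.23 (adjusted p = 0.067), and with the water change subtracted the difference was 0.42 (adjusted p = 0.749).

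Single arrays decided some of these calls. AT4G39670 lost its call without any 1 of 10 arrays, all but SA ZT24 3 h replicate 2 and SA ZT36 3 h replicate 1 (adjusted p of 0.0585 to 0.122). CCR2 lost its call without SA ZT24 0 h replicate 1 (0.0834), SA ZT36 0 h replicates 2 (0.0667) and 3 (0.0762) and SA ZT36 3 h replicates 2 (0.0667) and 3 (0.0736). AT2G44380 lost its call without SA ZT36 0 h replicate 2 (0.0568) or SA ZT36 3 h replicate 2 (0.0608), and AT5G60800 without the latter (0.053). AT3G13610, AT3G02840, AT4G39830, AT3G26910 and AT1G32920 kept their calls without any single array, but in a fit of the 12 SA arrays alone AT3G13610 (0.103), AT3G02840 (0.0954), CCR2 (0.111) and AT4G39670 (0.0953) were not called. With a trended and robust prior AT4G39670 was not called (0.0532). After quantile normalization CCR2 (0.0684, adjusted p = 0.939), AT2G44380 (0.52, adjusted p = 0.605) and AT4G39670 (0.74, adjusted p = 0.234) were not called, and AT3G13610 (1.10), AT3G02840 (1.15) and AT4G39830 (0.74) were called with differences over 1.5 times smaller.

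Transporters and some unplaced genes entered the positive differences through falls at ZT36. AT3G21670, of the nitrate transporter family, read 0.42, 0.74 and 0.79 at 0 h and -0.94, -0.30 and -0.33 at 3 h after ZT24, and 0.52, 0.30 and 0.34 at 0 h and -1.76, -2.05 and -1.96 at 3 h after ZT36. The 0 h arrays of the 2 times overlapped and the 3 h arrays did not. It fell by 1.17 ± 0.15 at ZT24 and by 2.31 ± 0.15 at ZT36 (gating difference 1.14 ± 0.21, limma, Benjamini-Hochberg adjusted p = 0.0158). Its SA ZT36 0 h arrays lay 1.09 ± 0.15 above water ZT36 0 h (adjusted p = 1.07e-05), and against water 3 h its difference was -0.13 (adjusted p = 0.742). The part of this offset in the result was not tested. TMT1, a sugar transporter of the vacuole membrane, rose by 0.27 ± 0.09 at ZT24 and fell by 0.36 ± 0.09 at ZT36 (0.63 ± 0.12, adjusted p = 0.019). AT4G16146 likewise rose by 0.41 ± 0.15 and fell by 0.74 ± 0.15 (1.15 ± 0.22, adjusted p = 0.0177), moves that are small beside its starting difference: SA ZT24 0 h lay below SA ZT36 0 h by a log2 difference of -5.56 ± 0.15. For TMT1 the SA ZT36 0 h arrays lay below water ZT36 0 h by a log2 difference of -0.52 ± 0.09 (adjusted p = 8.81e-05).

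For AT1G17090 the order of the times differed between SA and water at 0 h. Its SA 0 h arrays read -1.21, -0.82 and -1.19 at ZT24 and 1.29, 0.48 and 0.62 at ZT36, and its SA 3 h arrays read -0.72, -1.20 and -0.84 at ZT24 and -0.68, -0.64 and -0.62 at ZT36. It fell by 1.44 ± 0.21 at ZT36 and stood at 0.15 ± 0.21 at ZT24 (gating difference 1.59 ± 0.30, limma, adjusted p = 0.0177). Water 0 h means had the opposite order, 1.01 at ZT24 and -0.27 at ZT36, and the difference against water 3 h was -0.83 ± 0.30 (adjusted p = 0.0553). The part of the starting arrays in this result was not tested. Without SA ZT36 3 h replicate 2, TMT1 (adjusted p = 0.0608) and AT4G16146 (0.0506) were no longer called, and without SA ZT36 0 h replicate 2 TMT1 was not (0.0519). AT3G21670 was not called in a fit of the 12 SA arrays alone (0.0603). After quantile normalization the differences of AT1G17090 (2.47), TMT1 (1.73) and AT4G16146 (4.23) were larger and called.

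The largest negative gating difference belonged to AT1G13650, which fell after SA at ZT24 from a high starting value. It read 2.69, 2.60 and 2.50 in the SA ZT24 0 h arrays and -0.05, 0.03 and -0.04 at 3 h. At ZT36 it read 0.03, -0.44 and -0.27 at 0 h and -0.56, -0.49 and -0.53 at 3 h. The ZT24 0 h arrays stood above all others, and the fall was 2.62 ± 0.14 at ZT24 while the ZT36 change of -0.30 ± 0.14 was not called. The gating difference was -2.32 ± 0.20 (limma, Benjamini-Hochberg adjusted p = 2.15e-06), and its means in water at ZT24 were 3.06 at 0 h and 3.21 at 3 h.

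Falls from SA 0 h to SA 3 h at ZT24 also gave the negative differences of other genes. AT2G27420, a cysteine proteinase gene, read 2.51, 3.03 and 1.60 at 0 h and -0.11, 0.11 and 0.22 at 3 h after SA at ZT24, while all 6 SA ZT36 arrays lay between -0.48 and 0.29. It fell by 2.31 ± 0.24 at ZT24 and stood at -0.35 ± 0.24 at ZT36 (gating difference -1.95 ± 0.34, limma, adjusted p = 0.013). The SA ZT24 0 h arrays themselves were already lower than water ZT24 0 h, by a log2 difference of -3.17 ± 0.24 (adjusted p = 5.14e-08). AT5G62360, of the family that inhibits invertases and pectin methylesterases, read -0.68, -1.52 and -1.76 at 0 h and -3.39, -3.49 and -3.07 at 3 h after ZT24, and between 0.97 and 1.52 in the 6 SA ZT36 arrays. It fell by 2.00 ± 0.29 at ZT24 and stood at -0.0057 at ZT36 (-1.99 ± 0.41, adjusted p = 0.0236). The water ZT24 means of AT5G62360 were -3.13 and -3.21, close to the SA ZT24 3 h arrays and below the SA ZT24 0 h arrays. Its SA ZT24 0 h arrays lay 1.81 ± 0.29 above water ZT24 0 h (limma, adjusted p = 0.000171). Against water 3 h its difference was 0.07 (adjusted p = 0.944). The part of the starting arrays in the results of AT2G27420 and AT5G62360 was not tested.

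Further falls from SA 0 h to SA 3 h at ZT24 gave negative differences for 3 more named genes. AT2G34930, of an LRR protein family, fell by 1.65 ± 0.21 at ZT24 and stood at -0.16 ± 0.21 at ZT36 (gating difference -1.49 ± 0.30, limma, adjusted p = 0.0216). Its SA ZT24 0 h arrays lay 1.79 ± 0.21 above water ZT24 0 h (adjusted p = 7.02e-06), and against water 3 h its difference was -0.40 (adjusted p = 0.408). AT1G54050, a small heat-shock protein of the HSP20 family, fell by 1.34 ± 0.21 at ZT24 and stood at 0.13 ± 0.21 at ZT36 (-1.47 ± 0.30, adjusted p = 0.0236). Its SA ZT36 0 h arrays lay 0.89 ± 0.21 above water ZT36 0 h (adjusted p = 0.00288), and against water 3 h its difference was -2.22 (adjusted p = 2.28e-05). DPE1, an enzyme that rearranges short glucans during starch breakdown in the chloroplast, fell by 1.63 ± 0.16 at ZT24 and by 0.52 ± 0.16 at ZT36 (-1.11 ± 0.23, adjusted p = 0.0236). For DPE1 the SA ZT24 0 h arrays lay 0.83 above water and the SA ZT36 0 h arrays 1.28 below it, and the difference against water 3 h was positive, 1.37 ± 0.23 (adjusted p = 0.000203). After quantile normalization the DPE1 difference was 0.03 (adjusted p = 0.984). The part of the starting arrays in the results of these 3 genes was not tested.

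Left-out arrays ended several of these calls. AT5G62360 was not called when SA ZT24 0 h replicate 1 was left out (adjusted p = 0.0674), nor without SA ZT36 0 h replicates 2 (0.0667) and 3 (0.0651) and SA ZT36 3 h replicates 1 (0.0511) and 2 (0.0667). AT2G34930 was not called without SA ZT24 0 h replicates 1 and 3, SA ZT36 0 h replicates 2 and 3 and SA ZT36 3 h replicates 1 and 2 (0.0556 to 0.0661), nor AT1G54050 without SA ZT24 0 h replicate 1, SA ZT36 0 h replicates 1 and 2 and SA ZT36 3 h replicates 1 and 2 (0.0569 to 0.0762). DPE1 was not called without SA ZT24 0 h replicates 1 and 2, SA ZT36 0 h replicates 1 and 3 and SA ZT36 3 h replicates 1 and 3 (0.0512 to 0.0656). AT1G13650 and AT2G27420 were called without any single array, but AT2G27420 was not called in a fit of the 12 SA arrays alone (0.0547) or with a trended and robust prior (0.0952), nor was AT2G34930 in the former (0.0696). After quantile normalization AT5G62360 stood at -0.62 (adjusted p = 0.648).

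Larger rises at ZT36 were fewer. GRX480, a glutaredoxin that binds TGA factors and is a known SA target, read -0.32, 0.03 and -0.18 at 0 h and 3.89, 3.41 and 3.55 at 3 h after ZT24. After ZT36 it read -0.23, -0.09 and -0.13 at 0 h and 4.31, 4.36 and 4.78 at 3 h. Its 0 h arrays overlapped between the times and its 3 h arrays did not, with rises of 3.77 ± 0.13 and 4.63 ± 0.13 (gating difference -0.86 ± 0.18, limma, Benjamini-Hochberg adjusted p = 0.0303). AT3G29240 rose by 2.13 ± 0.12 at ZT24 and by 3.01 ± 0.12 at ZT36 (-0.89 ± 0.18, adjusted p = 0.021). AT5G42250, a zinc-dependent alcohol dehydrogenase, rose by 1.10 ± 0.18 and by 2.36 ± 0.18 (-1.26 ± 0.25, adjusted p = 0.0219) from SA 0 h arrays between -0.71 and 0.28 at ZT24 and between -1.81 and -1.35 at ZT36. Its SA 3 h arrays reached 0.81 to 1.14 and 0.79 to 0.82, so that the 2 times overlapped at 3 h and not at 0 h.

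In a further set transcripts rose from SA 0 h to SA 3 h at ZT36, while the change at ZT24 was not called. AT1G23390, a kelch-repeat F-box gene, read 1.11, 1.31 and 1.18 at 0 h and 1.20, 1.44 and 1.65 at 3 h after ZT24, and -1.45, -2.25 and -1.47 at 0 h and 0.06, 0.02 and -0.02 at 3 h after ZT36. It rose by 1.74 ± 0.21 at ZT36 and stood at 0.23 ± 0.21 at ZT24 (gating difference -1.52 ± 0.29, limma, adjusted p = 0.0193). Water 0 h means of AT1G23390 were -0.59 at ZT24 and 0.07 at ZT36. Its SA 0 h arrays differed from water 0 h by 1.79 at ZT24 and by -1.79 at ZT36. Against water 3 h its difference was positive, 1.31 ± 0.29 (adjusted p = 0.00273), and the part of the starting arrays in the result was not tested. AT4G21870, an HSP20-like gene, rose by 1.41 ± 0.23 at ZT36 and stood at -0.05 ± 0.23 at ZT24 (-1.46 ± 0.33, adjusted p = 0.0485). Its SA ZT36 0 h arrays lay 0.73 above water ZT36 0 h (adjusted p = 0.023).

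Opposite moves at the 2 times were called for AT5G44050, AT1G69160 and UGT74D1, which are among the 5 probe sets that fell at ZT24 and rose at ZT36. AT5G44050, a MATE-type efflux transporter, fell by 1.01 ± 0.15 at ZT24 and rose by 0.44 ± 0.15 at ZT36 (gating difference -1.45 ± 0.21, limma, adjusted p = 0.0025). Its SA 0 h arrays lay 0.74 below water at ZT24 and 0.85 above it at ZT36. AT1G69160 fell by 0.42 ± 0.14 and rose by 0.93 ± 0.14 (-1.35 ± 0.20, adjusted p = 0.00291). UGT74D1, a glycosyltransferase, fell by 0.33 ± 0.12 and rose by 0.55 ± 0.12 (-0.88 ± 0.17, adjusted p = 0.0198). For UGT74D1 the SA ZT36 0 h arrays lay 1.51 ± 0.12 above water ZT36 0 h (adjusted p = 3.58e-08), and for AT1G69160 the SA and water 0 h arrays were not called different at either time.

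Calls in the last 3 groups depended in part on single arrays. GRX480 lost its call without any 1 of 9 arrays, all but SA ZT24 0 h replicate 1, SA ZT24 3 h replicate 1 and SA ZT36 3 h replicate 1 (adjusted p of 0.053 to 0.0851), and AT4G21870 without any 1 of 9, all but SA ZT24 0 h replicate 3, SA ZT24 3 h replicate 3 and SA ZT36 0 h replicate 1 (0.058 to 0.158). AT3G29240 lost it without SA ZT24 0 h replicate 1, SA ZT36 0 h replicates 1 and 2 and SA ZT36 3 h replicate 2 (0.0514 to 0.0651), and AT5G42250 without SA ZT24 0 h replicate 3, SA ZT24 3 h replicate 1, SA ZT36 0 h replicate 3 and SA ZT36 3 h replicate 2 (0.0519 to 0.0641). AT1G23390 lost it without SA ZT36 0 h replicate 2 (0.0503) or SA ZT36 3 h replicate 2 (0.0516), and UGT74D1 without SA ZT36 0 h replicates 2 (0.0503) and 3 (0.0568) and SA ZT36 3 h replicate 2 (0.0608). AT5G44050 and AT1G69160 were called without any single array. In a fit of the 12 SA arrays alone AT4G21870 (0.118), AT5G42250 (0.103) and GRX480 (0.121) were not called, and with a trended and robust prior AT3G29240 (0.107), AT4G21870 (0.0535), GRX480 (0.264) and UGT74D1 (0.0792) were not. After quantile normalization the differences of AT1G23390 (-2.98), AT1G69160 (-2.45) and AT5G42250 (-1.91) were over 1.5 times larger in size.

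Some SA-induced genes rose at both times with no called gating difference. UGT76B1, which glycosylates SA and isoleucic acid, read -0.02, 0.28 and 0.52 at 0 h and 8.08, 8.04 and 7.92 at 3 h after ZT24, and -0.19, 0.02 and -0.02 at 0 h and 8.34, 8.64 and 8.39 at 3 h after ZT36. It rose 216-fold and 367-fold, log2 changes of 7.75 ± 0.13 and 8.52 ± 0.13, and the 3 h arrays of ZT36 all lay above those of ZT24. Its gating difference of -0.76 ± 0.18 was not called (limma, Benjamini-Hochberg adjusted p = 0.0676, 95% interval -1.15 to -0.38), and was called without SA ZT24 0 h replicate 1 (-0.90, adjusted p = 0.0351). WRKY53, a transcription factor of defence and senescence, rose by 2.98 ± 0.29 and by 2.42 ± 0.29, with a difference of 0.56 (95% interval -0.29 to 1.41, adjusted p = 0.74). WRKY6, a related factor chosen after its values were seen, rose by 1.97 ± 0.17 and by 0.94 ± 0.17 with a difference of 1.03 ± 0.24 (adjusted p = 0.0511), called without SA ZT24 3 h replicate 2 (1.27, adjusted p = 0.0037).

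Immune genes outside the called set had differences with intervals that reached or came near 0. EFR, the receptor of bacterial elongation factor Tu, rose by 1.50 ± 0.15 and by 1.74 ± 0.15, a difference of -0.24 (95% interval -0.68 to 0.20, limma, adjusted p = 0.808). BIK1, the cytoplasmic kinase below such receptors, rose by 0.85 ± 0.15 at ZT24 and stood at 0.35 ± 0.15 at ZT36, and its difference of 0.49 (0.04 to 0.94) was not called (adjusted p = 0.435). SAG101, a partner of the immune regulator EDS1, rose by 1.09 ± 0.16 and by 0.79 ± 0.16, with a difference of 0.30 (-0.18 to 0.77). The smallest called difference of any probe set, 0.48 in size, lay inside the intervals of BIK1 and SAG101 as a positive value and inside that of EFR as a negative one.

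Over 54 lists and families, 284 distinct genes had a named probe set. The 30 lists of genes held 942 entries and matched 133 distinct genes, and 10 of the 54 lists and families matched none. Counts for lists are of matched genes only. Of the 284, 107 (37.7%, against 31.7% of all probe sets) were called at ZT24 and 113 (39.8%, against 29.7%) at ZT36. In the gating contrast 5 (1.76%, against 0.598%) were called: GRX480, DPE1, CCR2, UGT74D1 and AT3G02840. All 4 measured genes of the list for stress and folding in the endoplasmic reticulum rose at both times. They were the bZIP factors BZIP17, BZIP28 and BZIP60, and ATERDJ3B. Among them BZIP60, a factor of the unfolded protein response, rose by 1.21 ± 0.11 and 0.78 ± 0.11, and the chaperone gene ATERDJ3B by 2.08 ± 0.21 and 2.65 ± 0.21. Neither BZIP60 (0.42, adjusted p = 0.3) nor ATERDJ3B (-0.57, adjusted p = 0.555) was called in the gating contrast. Of 19 SEC and VPS genes, which act in vesicle traffic, 10 rose and 2 fell at ZT24, 6 rose and 2 fell at ZT36, and 0 were called in the gating contrast. Over all probe sets 14.3% rose and 17.4% fell at ZT24, 13.3% rose and 16.4% fell at ZT36, and 0.598% were called in the gating contrast. Of those, KEU, a regulator of vesicle fusion, rose by 1.17 ± 0.12 and 0.70 ± 0.12, and VPS60.1, of the ESCRT sorting machinery, by 1.45 ± 0.13 and 1.14 ± 0.13.

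The list of touch and wounding genes had the median farthest above 0 among lists with at least 5 members. All 5 rose at ZT24 (14.3% of all probe sets did) and 4 rose at ZT36 (13.3% did). The median gating difference was 0.70 against -0.01 over 13355 named genes, and 1 was called (0.598% of all probe sets were). AT3G01830, a calmodulin-related gene, rose by 5.05 ± 0.47 and by 3.06 ± 0.47, and its difference of 1.99 ± 0.66 was not called (limma, adjusted p = 0.229). CML37 and CML38, calmodulin-like calcium sensors, had differences of 0.70 (adjusted p = 0.45) and 0.42 (adjusted p = 0.277). STZ, a zinc-finger factor of stress responses, rose by 2.73 ± 0.24 and by 2.54 ± 0.24, with a difference of 0.19 (95% interval -0.50 to 0.89).

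Glycosyltransferases split in both directions. Of 47 measured members of the UDP-glycosyltransferase family, 12 rose and 9 fell at ZT24, 15 rose and 7 fell at ZT36, and UGT74D1 was the only member called in the gating contrast, with a family median of -0.04. Of all probe sets, 31.7% were called at ZT24, 29.7% at ZT36 and 0.598% in the gating contrast. Of 8 photosynthesis genes measured, 0 were called at ZT24 (31.7% of all probe sets were) and 5 fell at ZT36 (16.4% of all probe sets did), among them LHCB4.2, an antenna protein gene, by 0.65 ± 0.12 against -0.15 ± 0.12 at ZT24. The LHCB4.2 gating difference of 0.50 was not called (limma, adjusted p = 0.271), nor was that of LHCB4.1 (0.15, adjusted p = 0.737). STOMAGEN, a peptide gene that promotes stomata, fell by 2.68 ± 0.35 and by 2.65 ± 0.35, a difference of -0.03 with a 95% interval of -1.07 to 1.01. GH3.3, which conjugates auxin, rose by 2.41 ± 0.37 and 2.49 ± 0.37, with a difference of -0.08 (-1.18 to 1.02). The 3 dehydration and cold genes LTI30, COR47 and COR15A gave the list of 4 its median of -1.37, with 0 called. LTI30 read 3.75 in SA ZT36 3 h replicate 1 and 0.56 and 0.20 in the others of that group, and its difference of -1.57 was not called (adjusted p = 0.663). The plot of list members by gating difference shows most lists centred near 0.

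**Figure D3:**
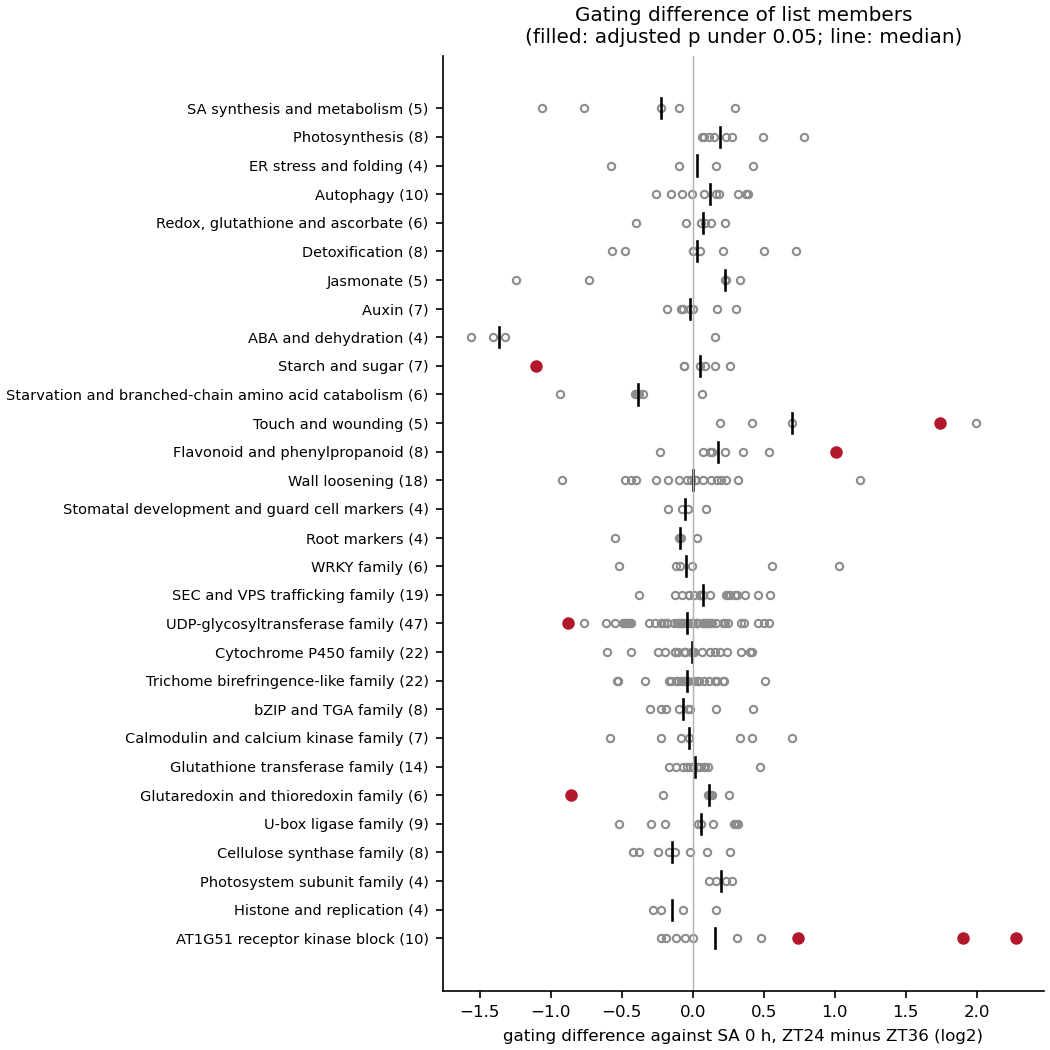
Each row is a list or family with at least 4 measured members (number in parentheses), each point a member's gating difference on the log2 scale, filled where the adjusted p was under 0.05, and each line the list's median. Most medians lie near 0, while touch and wounding (0.70) and the AT1G51 run, put together after its values were seen, hold the members farthest to the right, and the dehydration list has a median of -1.37.

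The count of gated probe sets differed with the control arrays. All versions of the contrast below share the SA 3 h arrays, so they are not independent of each other, and their values are given side by side only. Against SA 0 h, 136 probe sets (0.598%) were called. With water 3 h arrays as control it was 4704 (20.7%), 2363 positive (10.4%) and 2341 negative (10.3%), and with water 0 h arrays 6586 (29.0%). Subtracting the water change over 3 h from the SA 0 h version called 29 (0.127%, with 2269 at an unadjusted p under 0.05), 16 positive (0.0703%) and 13 negative (0.0572%), with a median SE of 0.21 in place of 0.15. For the 92 positive probe sets the median against water 3 h was 0.94, within a range of -2.41 to 2.53, and after subtraction of the water change 1.10, within 0.14 to 2.32. For the 44 negative probe sets these medians were -0.73 (-5.05 to 1.37) and -1.12 (-2.51 to -0.20).

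AT1G51850, AT1G51890, GRX480 and AT1G13650 had the same direction under each of these controls. AT1G51850 had 1.91 against SA 0 h, 2.21 against water 3 h, 2.07 against water 0 h and 2.04 after subtraction of the water change (limma, adjusted p = 0.00677). AT1G51890 had 2.28, 2.53, 2.96 and 1.85, the last not called (adjusted p = 0.341). GRX480 had -0.86, -1.39, -1.07 and -1.17, the last not called (adjusted p = 0.0909). AT1G13650 had -2.32, -2.88, -2.68 and -2.51, called in each. By contrast AT1G17090, AT1G23390 and DPE1 had the opposite direction against water 3 h and water 0 h, and AT5G62360 (0.07) and AT5G60800 (0.27) were close to 0 against water 3 h.

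GI, HYH and COR27 of the clock and light lists, with MCCA and STZ from other lists, were the reverse case. Only 2 of 14 evening clock entries, 2 of 32 light signalling entries and 0 of 9 morning clock entries were matched. The values below are therefore of single genes and do not describe a class. GI had a gating difference of -0.27 ± 0.29 against SA 0 h (limma, adjusted p = 0.854) and of 3.51 ± 0.29 against water 3 h (adjusted p = 4.99e-08). HYH, a bZIP factor of light signalling, rose by 0.97 ± 0.16 and by 1.28 ± 0.16 against SA 0 h, a difference of -0.30 (adjusted p = 0.749), and had -3.56 ± 0.23 against water 3 h. COR27, a repressor in the clock's night-time output, had 0.88 ± 0.31 (adjusted p = 0.283) and 2.20 ± 0.31. MCCA, an enzyme of leucine breakdown, had -0.93 ± 0.43 (adjusted p = 0.468) and 2.75 ± 0.43. STZ had 0.19 and -1.38 ± 0.33, and 0.61 against water 0 h (adjusted p = 0.201). Its water change over 3 h differed between the times by 1.98 ± 0.33 (adjusted p = 0.0606). For these genes the SA ZT36 0 h arrays differed from water ZT36 0 h, by -2.68 ± 0.20 for GI, 2.70 ± 0.16 for HYH, -2.12 ± 0.22 for COR27, -3.48 ± 0.30 for MCCA and -0.70 ± 0.24 for STZ. The part of this starting difference in the contrasts, and for STZ that of the water change, was not tested.

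Autophagy genes followed the same division. None of the 10 measured ATG genes was called in the gating contrast against SA 0 h, where their median was 0.12 (0.598% of all probe sets were called). Against water 3 h 7 were called positive, with a median of 0.71 (10.4% of all probe sets were called positive there). Among the 6 starvation and branched-chain amino acid genes, 0 were called against SA 0 h with a median of -0.39. Against water 3 h 4 of them were called positive, with a median of 1.35, beside the same 10.4% of all probe sets. The plot of gating differences by control sets these values beside each other for single genes.

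**Figure D4:**
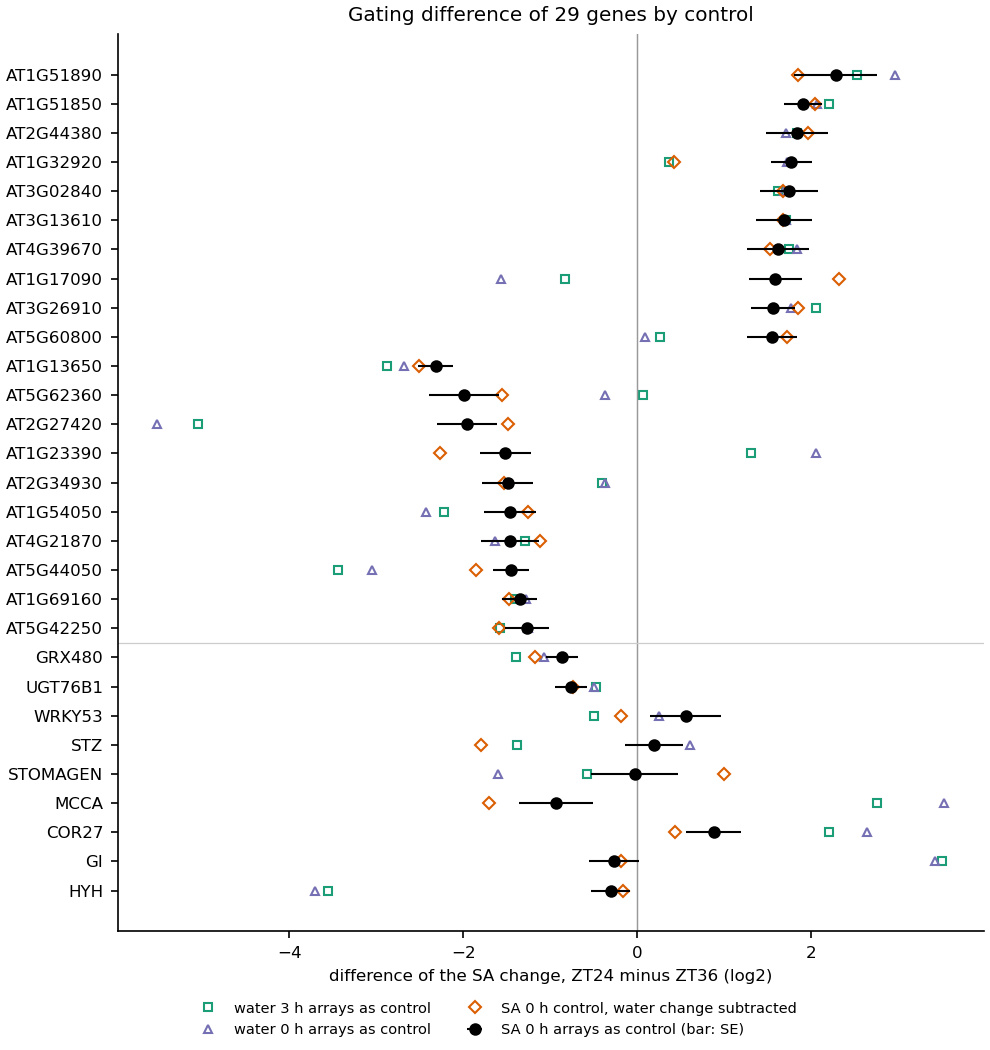
Rows are the 20 named genes with the largest called differences and, under the grey line, 9 further genes; the horizontal axis gives the difference of the SA change between ZT24 and ZT36 on the log2 scale, black for SA 0 h as control with its SE, open symbols for the other controls. Symbols lie close together for AT1G51850 (1.91 to 2.21) and AT1G69160, and far apart for GI, HYH, COR27, AT1G23390 and AT2G27420.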

How the data were processed

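Per the submitters' processing notes the arrays were processed with RMA (no version given), a method that adjusts background, applies quantile normalization and returns 1 log2 value per probe set. The values the authors deposited are taken as log2 for that reason, since the files do not state the base. Each probe set had been centred on its median over the 24 arrays (largest absolute median 5e-07). This leaves differences between groups unchanged and hides signal over background. Precision is limited by the number of arrays.

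Groups came from the labels. A mean was fitted for each of 8 groups on all 24 arrays with limma 3.58.1 in R 4.3.3 (lmFit and eBayes, 16 residual and 4.03 prior degrees of freedom). Tests were 2-sided, with Benjamini-Hochberg adjustment over 22746 probe sets per contrast and a threshold of 0.05. The fit was tested on simulated data. Figures used Python 3.11.15 and matplotlib 3.10.9. The platform annotation table listed 1 symbol for 13513 probe sets, several for 503, and the other 8730 are not named here. A RefSeq table of TAIR10.1 matched 13436, and 1 probe set was kept for each of 13355 genes (plain name ending, then lowest identifier). That table served for names alone. The build behind the deposited values is not given in the sources used here, so no coordinates are printed. No sequence was used here, and a planned description of promoter motifs was not run.

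The comparison, the gene lists and the genes always named were chosen with earlier results of these data known. Named genes are the 10 largest called differences in each direction, up to 4 called members per list and 15 genes always named. AT1G51620, AT1G51790, AT1G51820, AT1G51860, B120, AT1G74360, AT1G53430, AT1G48210, ATSIK, PTI1-4, AT1G63750, AT4G39830, AT3G21670, TMT1, AT4G16146, AT3G29240, AT3G01830, CML37, CML38, WRKY6, SAG101, MCCA, LTI30, VPS60.1 and KEU are named beyond this rule, from a choice made once their values had been seen, as are COR47 and COR15A. No batch is labelled. Samples in the same run of 8 title numbers did not deviate together: their deviations from group means correlated at -0.19 to 0.23 over 18 pairs, against -0.30 to 0.39 over 36 pairs of different runs. Alternatives were other normalizations, priors, weights, filters and thresholds, a fit of the 12 SA arrays alone, a block on title-number runs, and each array left out in turn.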

Additional observations from a re-analysis of the deposited data

Results flagged for a closer look

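The difference between the changes after SA at ZT24 and at ZT36 was itself tested in 1 linear model (limma, Benjamini-Hochberg adjusted p under 0.05), and 136 probe sets differed between the times. Named genes with the more positive change at ZT24, with the size of the difference on the log2 scale, were AT1G51890 (2.28), AT1G51850 (1.91), AT2G44380 (1.83), AT1G32920 (1.77), AT3G02840 (1.75), AT3G13610 (1.68), AT4G39670 (1.62), AT1G17090 (1.59), AT3G26910 (1.56), AT5G60800 (1.55) and CCR2 (1.01). Genes chosen after their values were seen added AT1G74360 (1.48), AT1G48210 (1.29), AT4G39830 (1.26), B120 (1.23), AT1G51620 (1.16), AT1G53430 (1.15), ATSIK (1.15), AT4G16146 (1.15), AT3G21670 (1.14), PTI1-4 (0.94), AT1G63750 (0.91), AT1G51860 (0.75) and TMT1 (0.63). Named genes with the more positive change at ZT36 were AT1G13650 (-2.32), AT5G62360 (-1.99), AT2G27420 (-1.95), AT1G23390 (-1.52), AT2G34930 (-1.49), AT1G54050 (-1.47), AT4G21870 (-1.46), AT5G44050 (-1.45), AT1G69160 (-1.35), AT5G42250 (-1.26), DPE1 (-1.11), UGT74D1 (-0.88) and GRX480 (-0.86), and AT3G29240 (-0.89) among those chosen after their values were seen. The SA 0 h arrays, which differed from water 0 h arrays at both times, enter each of these differences.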

How the results depend on the processing

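The 2 changes over 3 h after SA were stable in number: leaving out single arrays gave 6119 to 7179 calls at ZT24 (2848 to 3268 upwards, 3271 to 3953 downwards) and 5681 to 6939 at ZT36 (2622 to 3129 upwards, 3007 to 3833 downwards). The gating count of 136 (92 positive, 44 negative) ran from 52 to 199 without single arrays (39 to 147 positive, 13 to 67 negative). It was 89 (60 and 29) in a fit of the 12 SA arrays alone, 1017 (542 and 475) after quantile normalization, 72 (47 and 25) with 1 probe set for each named gene, 19 (15 and 4) at an adjusted p of 0.01 and 82 (57 and 25) with an absolute log2 difference of at least 1. Quantile normalization of centred values also removes the difference in spread between 0 h and 3 h arrays, so it cannot show whether a call holds. Array weights gave 69 negative differences. A block on runs of title numbers gave 156 calls and changed no call of a named gene, and the samples share only a number. Of the 38 called named genes, 14 were chosen after their values were seen. Under all 19 settings, which include quantile normalization, 12 of the 38 kept their call, and 7 of the 24 named by the rule did. Over 722 comparisons for the 38 genes, 596 kept direction and call, 125 kept direction and lost the call, and 1 turned direction. That 1 was DPE1 after quantile normalization (0.0289), where the uncalled GI (0.11), LHCB4.2 (-0.34), AT1G51820 (-0.0229) and VPS60.1 (-0.12) turned too. STOMAGEN turned with array weights (0.26), and without single arrays it ranged from -0.27 to 0.36, GH3.3 from -0.55 to 0.44 and STZ from -0.0429 to 0.35. The cause was not tested. The centred values do not show signal over background, so no filter on dim probe sets could be made.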
